A study of Mus musculus with 27 samples.

Results

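Mouse mixed glia given lipopolysaccharide (LPS) and bryostatin-1 together were compared with untreated glia, to show which inflammatory changes of LPS-treated glia remained under bryostatin. The comparison rests on 6 of the 27 RNA sequencing libraries of the series, chosen by their labels: 3 libraries of glia given both agents and 3 of untreated glia from the same experiment. The cultures came from cortices of C57BL/6 mice of postnatal days 3 to 6 and were kept 14 days in vitro. Treatment lasted 24 h at 100 ng/mL LPS and 50 nM bryostatin-1, and the untreated glia received neither agent. Beside these stand 3 libraries of glia given 100 ng/mL LPS without bryostatin, from the same experiment. Bryostatin without LPS (50 nM, 24 h) was given only in the other experiment of the series, where 3 libraries have 3 untreated libraries of their own. No label tells whether the 3 libraries of a group are separate cultures or animals, so a p-value here covers only library-to-library spread, part or all of which may be technical.

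LPS, a component of the outer membrane of Gram-negative bacteria, is bound by CD14 and by TLR4 with its partner MD-2, and TLR4 signals through MyD88 to NF-kB and through TRIF to interferon beta, which in turn induces antiviral genes through the interferon receptor. Bryostatin-1 is a macrocyclic lactone of marine origin that binds the C1 domain, the diacylglycerol-binding part of protein kinase C and of several related proteins. It first activates protein kinase C, and longer exposure can lower the amount of some of its isoforms. Mixed glia hold mostly astrocytes, with microglia, the brain's resident macrophages, and cells of the oligodendrocyte lineage. In such bulk RNA, fewer cells of a type and less RNA per cell cannot be told apart.

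The 6 libraries held 17412096 to 18628741 counts. By these totals 3 counts equal 0.161 to 0.172 CPM (counts scaled to a common library size) in a single library. The levels below are also scaled by edgeR's library factors (1.039 to 1.159 in these libraries), so 3 counts are somewhat less there. Defining markers of microglia, astrocytes and oligodendrocyte precursors were present in untreated glia, and the 12 markers of T cells, B cells and neutrophils summed to at most 1.19 CPM in any untreated, LPS, or LPS and bryostatin library of this experiment, with 8 to 11 of the 12 at 0. Untreated replicate 1 stood apart from its group. Its values across genes correlated at r = 0.964 and 0.965 with untreated replicates 2 and 3, and at 0.991 and 0.99 with 2 untreated libraries of the other experiment. Sox10, the defining transcription factor of the oligodendrocyte lineage, read 0.161 CPM in it and 33.5 and 30.1 CPM in untreated replicates 2 and 3. Its label is therefore in doubt, it is called untreated replicate 1 throughout, and values without it are given wherever they end a call, turn a direction or move a count by more than 1.5 times.

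A gene was called when its adjusted p in edgeR's quasi-likelihood test was under 0.05, with adjustment over all genes tested. Levels are CPM scaled with edgeR's library factors, and fold changes are on the log2 scale with their SE. Glia given both agents differed from untreated glia at 6773 of 16073 genes tested (42.1%), of which 3568 were higher (22.2%) and 3205 lower (19.9%). More than 2-fold differences numbered 1292 higher (8.04%) and 1253 lower (7.80%). Without untreated replicate 1, 7773 of 16417 genes were called, 4055 higher (24.7%) and 3718 lower (22.6%). The median log2 fold change over all genes was 0.00336, so each gene list below is read against a median near 0 and against these shares.

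In the same fit, LPS without bryostatin differed from untreated glia at 6164 genes (38.4%), 3141 higher (19.5%) and 3023 lower (18.8%). That comparison uses the same 3 untreated libraries, so its values are only set beside those of the main comparison. The difference between glia given both agents and glia given LPS was tested directly: 1108 genes were called (6.89%), 538 higher with both agents (3.35%) and 570 lower (3.55%), with 133 (0.827%) and 149 (0.927%) of these past 2-fold. The count of 1108 depended on the libraries in the fit. It was 2148 without untreated replicate 1, which shares the estimate of the spread, and 588 to 689 without any 1 library of the compared groups. The libraries of these groups did not overlap at 35.2% of all genes tested.

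Receptors and adaptors that sense LPS were mostly above untreated levels with both agents. Of 20 genes in the list, 14 rose and Tlr13 fell (a gene picked after its values were seen), with a median of 0.75. Cd14, the LPS-binding co-receptor, read 23.4, 29.2 and 33.8 CPM in the untreated libraries, 221, 225 and 245 with LPS and 288, 232 and 281 with both agents. Every library of both treated groups lay above every untreated one, and the log2 fold change against untreated was 3.21 ± 0.17 (adjusted p = 4e-10). Tlr4, the receptor itself, read 18.7, 18.8 and 19.9 CPM untreated, 37.9, 38.8 and 41.3 with LPS and 44.4, 53.2 and 53.0 with both agents, a rise of 1.39 ± 0.16 over untreated glia (adjusted p = 3.63e-06). Against LPS, 6 of the 20 were called lower, none higher and 14 not called (median −0.11). Without untreated replicate 1, 7 were lower and 1 higher. The higher readings of Cd14 and Tlr4 with both agents than with LPS were thus not called in the main fit. Irak3, a kinase-like brake on the MyD88 branch, and Tlr2, the receptor for bacterial lipopeptides, rose less than with LPS. Irak3 went from 2.84, 2.82 and 2.10 CPM to 22.9, 26.8 and 26.1 with both agents, below the 40.1, 36.2 and 39.7 of LPS (−0.61 ± 0.11, adjusted p = 0.00297). Tlr2 was 0.68 lower than with LPS on the log2 scale (SE 0.12, adjusted p = 0.00252) and still 1.72 ± 0.13 above untreated.

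Genes of the NF-kB list (subunits, inhibitors and a few others such as Tnfaip2) rose in 14 of 16 cases with both agents (median 2.26). With LPS 16 of 16 rose (median 2.59). All 16 had a lower mean CPM with both agents than with LPS, 4 of them past the test (median −0.32 against LPS) and 11 without untreated replicate 1. Nfkbia, the inhibitor IkB alpha, read 28, 37.1 and 43.0 CPM untreated, 335, 360 and 381 with LPS and 279, 276 and 300 with both agents. Its groups did not overlap in either comparison: it rose by 2.98 ± 0.13 over untreated (adjusted p = 3.1e-11), and its −0.33 ± 0.12 against LPS missed the threshold (adjusted p = 0.134, and 0.0156 without untreated replicate 1). Tnfaip2, a TNF-induced gene, stood at 11.1, 12.4 and 15.4 CPM untreated, 346, 347 and 377 with LPS and 196, 214 and 251 with both agents. It stayed 4.08 ± 0.13 above untreated and was lower than with LPS (−0.69 ± 0.11, adjusted p = 0.00119).

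Promoters of Nfkbia and of Cxcl1, a neutrophil chemokine of the same response, are shown because both genes stayed far above untreated levels. They are RefSeq sequences of build GRCm38.p6, from 250 bases before to 50 after the gene's start, 5′ to 3′ on the gene's strand, and capitals mark each match on either strand to the NF-kB motif GGGANNNNCC (2 of the 3 matches in Cxcl1 overlap). Nfkbia lies at chr12:55492598-55492897 (minus strand) and Cxcl1 at chr5:90890995-90891294 (plus strand).
Nfkbia: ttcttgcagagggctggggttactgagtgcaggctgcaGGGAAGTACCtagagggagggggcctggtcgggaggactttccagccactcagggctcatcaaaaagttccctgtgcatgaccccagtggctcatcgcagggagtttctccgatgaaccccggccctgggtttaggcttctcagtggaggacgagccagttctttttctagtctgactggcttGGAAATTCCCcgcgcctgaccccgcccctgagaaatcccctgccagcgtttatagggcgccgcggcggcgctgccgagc
Cxcl1: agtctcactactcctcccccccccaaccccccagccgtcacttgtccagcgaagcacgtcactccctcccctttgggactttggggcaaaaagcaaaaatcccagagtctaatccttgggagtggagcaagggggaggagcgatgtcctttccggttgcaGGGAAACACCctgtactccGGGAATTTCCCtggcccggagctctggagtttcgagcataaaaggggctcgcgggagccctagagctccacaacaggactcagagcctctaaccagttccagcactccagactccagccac
The nearest match begins 29 bases before the start of Nfkbia and 70 before that of Cxcl1, where it overlaps another. The motif was found in 10 of the 13 NF-kB list genes with a promoter in the table (76.9%), in 30.5% of the 11818 tested genes with one and in 20.7% of all promoters. Cxcl1 belongs to the chemokine list, where it was 9 of 18 (50.0%). Other lists ranged from 0 of 4 mural and fibroblast genes to 3 of 4 endothelial genes (75.0%), with 9 of 16 ERK feedback genes (56.2%). A match is a description of the letters and not a bound site.

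Cytokines remained high. Of 20 measured cytokine genes, 18 rose over untreated glia with both agents (median 2.29) and 18 with LPS (median 2.54), and without untreated replicate 1 all 20 rose with both agents. Il6, a pleiotropic cytokine of acute inflammation, read 0.161, 0.0988 and 0.143 CPM untreated, 35.4, 46.6 and 43.0 with LPS and 42.9, 57.9 and 45.4 with both agents. The treated groups overlapped each other and lay far above untreated glia (8.44 ± 0.29, adjusted p = 2.44e-12), and the difference between them was 0.23 with a 95% interval of −0.09 to 0.54. Il1a, an interleukin-1 cytokine, rose from 0.483, 0.790 and 1.15 CPM to 160, 148 and 169 (7.60 ± 0.17), beside 149, 148 and 163 with LPS. Il1b, the other main interleukin-1 cytokine, rose from 0.483, 2.22 and 3.87 CPM to 292, 258 and 298 (6.98 ± 0.35, adjusted p = 1.65e-09), beside 319, 300 and 333 with LPS.

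Among the cytokines, Tnf, an early mediator of inflammation, was lower with both agents than with LPS: its levels were 1.77, 1.09 and 1.96 CPM untreated, 22.7, 24.5 and 22.6 with LPS and 16, 13.4 and 16.7 with both agents. The groups did not overlap, with −0.60 ± 0.15 against LPS (adjusted p = 0.0247) and 3.25 ± 0.19 against untreated. Lif, a cytokine of the interleukin-6 family, went the other way, with 8.10, 3.71 and 3.91 CPM untreated, 10.6, 11 and 11.6 with LPS and 18.2, 25.6 and 21.7 with both agents (0.98 ± 0.20 against LPS, adjusted p = 0.00862). Csf3, which drives granulocyte production, had 0 counts in the untreated libraries and 7.91, 5.17 and 5.89 CPM with both agents, at least 125.8-fold higher when 3 counts are assumed over the untreated group. Csf1, a growth factor for microglia, read 560, 259 and 274 CPM untreated and 446, 485 and 512 with both agents, so its call depended on untreated replicate 1: 0.40 ± 0.21 with it (adjusted p = 0.145) and 0.85 without it (adjusted p = 4.54e-08). Of the 20 genes, 2 were called higher and 1 lower than with LPS, against 4 and 3 without untreated replicate 1.

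**Figure D1:**
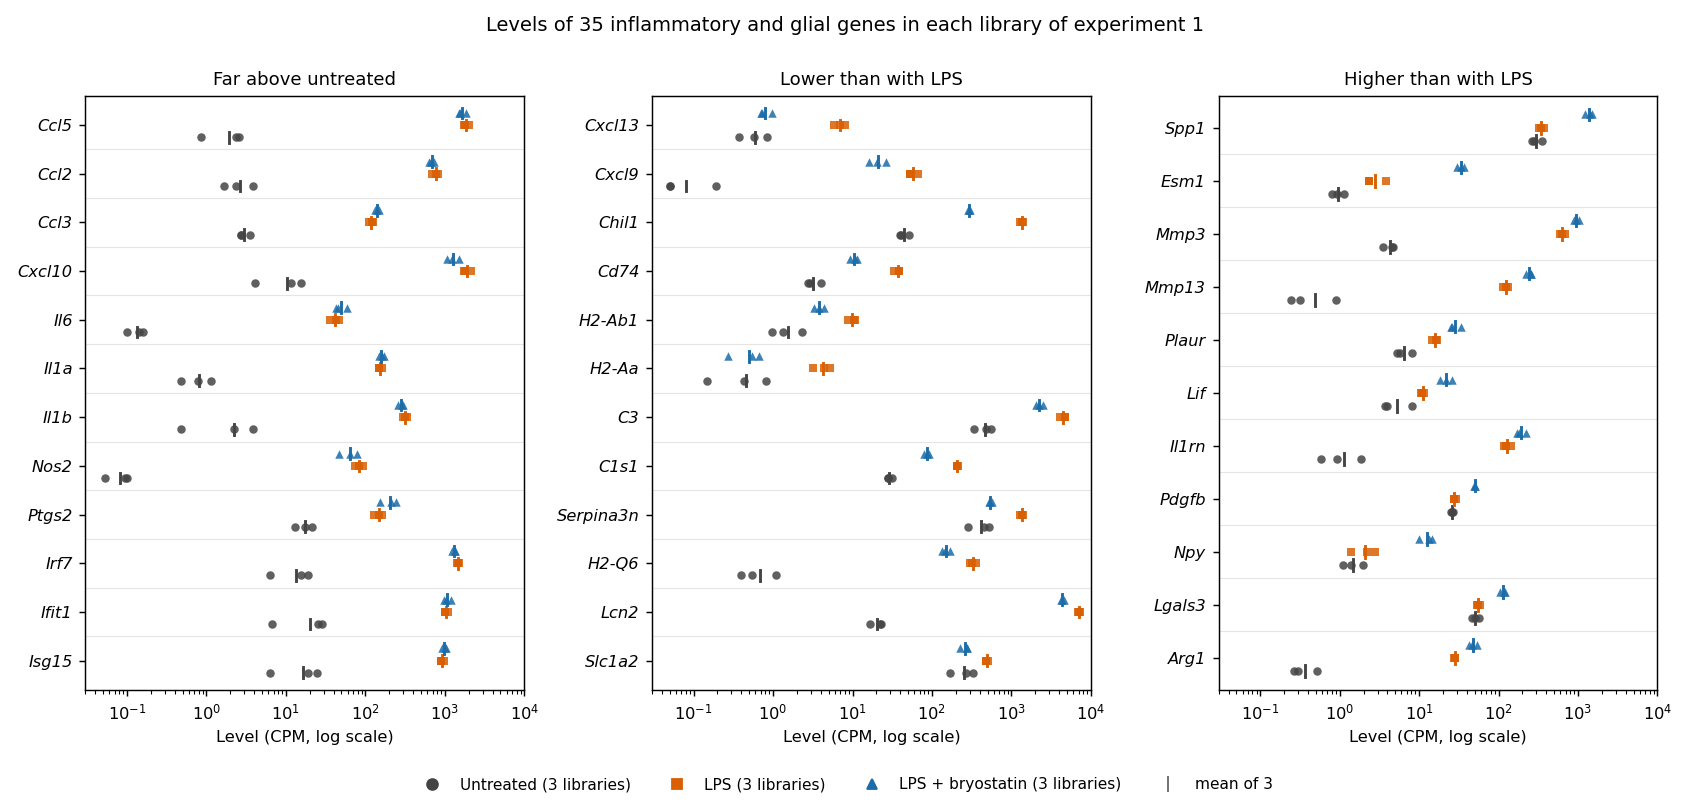
Level of 35 named genes in each untreated, LPS, and LPS and bryostatin library (log axis, CPM, values at or under 0.05 CPM drawn at 0.05), in 3 panels: genes far above untreated levels, genes lower than with LPS and genes higher than with LPS. Il6 with both agents lies at 42.9 to 57.9 CPM, overlapping the LPS libraries, while Cxcl13 at 0.702 to 0.968 CPM lies among the untreated ones and Spp1 at 1235 to 1483 CPM lies above all others.

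Chemokines were also largely retained: 23 of 25 measured genes rose with both agents (median 5.54) and 24 with LPS (median 5.30). Ccl5, which attracts T cells and monocytes, read 0.858, 2.57 and 2.39 CPM untreated, 1761, 2014 and 1780 with LPS and 1520, 1868 and 1556 with both agents. The treated groups overlapped, 9.71 ± 0.27 above untreated (adjusted p = 2.82e-13) and −0.17 apart with a 95% interval of −0.54 to 0.20. Ccl2, the main monocyte chemokine, rose from 2.36, 1.68 and 3.87 CPM to 635, 740 and 674, beside 694, 828 and 779 with LPS. Cxcl11, a ligand of CXCR3 induced by interferon, had 1 count over the untreated group and 4260 with both agents, a ratio of 4517 with a counting interval of 810.2 to 178400.

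A few chemokines departed from that pattern: against LPS, 4 were called lower and 1 higher with both agents (6 and 2 without untreated replicate 1). Cxcl13, a B-cell chemokine, read 0.376, 0.840 and 0.573 CPM untreated, 6.88, 8.07 and 5.84 with LPS and 0.968, 0.724 and 0.702 with both agents. Its libraries with both agents overlapped the untreated ones, were 3.11 below LPS on the log2 scale (SE 0.27, adjusted p = 3.96e-06) and had no called difference from untreated (0.41 ± 0.32, adjusted p = 0.326). Ccl22, made by activated macrophages and dendritic cells, read 0, 0.0494 and 0.0477 CPM untreated, 5.73, 5.84 and 9.07 with LPS and 0.914, 0.982 and 0.648 with both agents. It was lower than with LPS by 3.00 ± 0.23 (adjusted p = 1.82e-06), and the ratio to untreated glia was 25.45 with a counting interval of 6.671 to 216.1. Cxcl9, a CXCR3 ligand and classical target of interferon gamma, read 52.1, 67.5 and 52.6 CPM with LPS and 16, 26.5 and 20.4 with both agents (−1.45 ± 0.17, adjusted p = 0.000101), with at most 0.191 CPM untreated. Cxcl10, the third CXCR3 ligand, read 4.13, 11.7 and 15.5 CPM untreated, 1763, 2118 and 1775 with LPS and 1071, 1522 and 1245 with both agents. Its −0.56 against LPS was not called (adjusted p = 0.282) but was without untreated replicate 1 (adjusted p = 0.00414). Cxcl3, a neutrophil chemokine, was the gene called higher, with 10.9, 10.7 and 11.1 CPM with LPS and 22.2, 21.6 and 24.5 with both agents (1.06 ± 0.18, adjusted p = 0.00174).

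Inflammatory enzymes and acute-phase genes rose in 18 of 20 cases (median 4.06, and 3.60 when genes with near-zero untreated counts enter at their bounds), beside 19 of 20 with LPS (median 4.67). Nos2, the inducible nitric oxide synthase, read 0.0536, 0.0988 and 0.0954 CPM untreated, 73.2, 92.8 and 82.8 with LPS and 47.2, 78.0 and 64.2 with both agents, so the treated groups overlapped (9.45 ± 0.29 over untreated, adjusted p = 3.72e-13, and −0.39 against LPS, adjusted p = 0.111). Lcn2, the iron-carrier-binding lipocalin 2, stayed high at 4332, 4249 and 4569 CPM against 16.8, 22.5 and 22.4 untreated. It lay under every LPS library (7075, 6909 and 7295 CPM), by −0.69 ± 0.13 (adjusted p = 0.00277). Acod1, which makes itaconate, read 155, 172 and 164 CPM with both agents, 214, 214 and 209 with LPS and 0.966, 0.543 and 1.34 untreated, a difference from LPS of −0.38 ± 0.10 (adjusted p = 0.0398).

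Serpina3n, an astrocyte-enriched protease inhibitor and reactive-astrocyte marker, was not called against untreated glia. It read 284, 525 and 449 CPM untreated, 1380, 1296 and 1361 with LPS and 571, 537 and 526 with both agents. The lowest library with both agents lay just above the highest untreated one, the difference from untreated was 0.38 ± 0.15 (adjusted p = 0.0539), and that from LPS was −1.30 ± 0.15 (adjusted p = 6.45e-05). Ptgs2, which makes prostaglandin precursors, read 154, 242 and 208 CPM with both agents, 130, 164 and 150 with LPS and 21.6, 13.1 and 17.2 untreated, with no called difference between the treated groups (0.45, 95% interval −0.02 to 0.92). Of the list, 6 genes were called lower and none higher than with LPS, against 9 and 0 without untreated replicate 1. Chil1, a chitinase-like protein of reactive astrocytes and macrophages that is not in the list, read 40.1, 51.5 and 40.7 CPM untreated, 1385, 1275 and 1363 with LPS and 280, 302 and 294 with both agents. It was among the genes lowered most against LPS (−2.20 ± 0.10, adjusted p = 1.03e-08) and remained 2.73 ± 0.11 above untreated.

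Antiviral genes induced by type I interferon were high in every member. All 35 rose over untreated glia with both agents (median 4.50, or 4.42 with near-zero untreated genes at their bounds), all 35 rose with LPS (median 4.56), and in all 35 the libraries with both agents lay above the untreated ones (groups did not overlap, in either direction, at 50.1% of all genes tested). Ifit1, which binds viral RNA, read 6.60, 28.7 and 25.1 CPM untreated, 1007, 1097 and 1000 with LPS and 977, 1200 and 1044 with both agents. The treated groups overlapped, with a difference of 0.05 and a 95% interval of −0.60 to 0.71. Isg15, a ubiquitin-like antiviral modifier, rose from 6.22, 24.3 and 18.8 CPM to 1003, 1026 and 921 (5.90 ± 0.35), beside 888, 963 and 890 with LPS. Irf7, a transcription factor that amplifies interferon production, rose from 6.22, 18.7 and 15.4 CPM to 1326, 1335 and 1245 (6.59 ± 0.29), below the 1474, 1499 and 1438 of LPS with no called difference (adjusted p = 0.759). Mx1, an antiviral GTPase, was the 1 member called against LPS, at 77.8, 97.5 and 80.3 CPM with both agents and 108, 138 and 106 with LPS (−0.46 ± 0.11, adjusted p = 0.0187), and 5 members were called lower without untreated replicate 1. Ifnb1, interferon beta itself, had 0 counts over the untreated group and 36 with both agents, at least 12.72-fold higher, beside 30 with LPS.

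The promoters of Ifit1 and Isg15 are printed because this group moved as a whole. They come from the same RefSeq table and window, at chr19:34640639-34640938 (plus strand) and chr4:156200769-156201068 (minus strand). Capitals mark the interferon-stimulated response element GAAANNGAAA on either strand, whose 3 matches in Isg15 overlap.
Ifit1: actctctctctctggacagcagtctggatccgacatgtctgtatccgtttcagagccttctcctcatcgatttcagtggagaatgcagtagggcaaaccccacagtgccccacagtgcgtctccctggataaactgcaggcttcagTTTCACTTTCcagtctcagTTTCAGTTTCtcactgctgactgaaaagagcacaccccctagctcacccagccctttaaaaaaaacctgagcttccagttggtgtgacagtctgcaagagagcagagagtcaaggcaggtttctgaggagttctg
Isg15: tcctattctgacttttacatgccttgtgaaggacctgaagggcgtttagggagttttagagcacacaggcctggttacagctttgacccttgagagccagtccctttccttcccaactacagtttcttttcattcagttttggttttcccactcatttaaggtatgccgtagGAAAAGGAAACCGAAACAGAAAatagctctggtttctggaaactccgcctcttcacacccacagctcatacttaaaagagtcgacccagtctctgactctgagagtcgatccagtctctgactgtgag
The nearest match begins 85 bases before the start of Ifit1 and 66 before that of Isg15, where 3 matches overlap in 1 stretch. The motif was found in 13 of 24 list genes with a promoter in the table (54.2%), in 3.9% of tested genes with one and in 3.4% of all promoters. In the list of interferon gamma targets described next it was 9 of 14 (64.3%).

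Genes that interferon gamma induces strongly stayed above untreated glia but often below LPS. Of 21, 20 rose over untreated and Irf8 fell (median 4.22), beside 19 that rose with LPS (median 4.68). Against LPS 6 were called lower and 1 higher (median −0.42), and 12 and 1 without untreated replicate 1. Gbp2, an interferon-induced GTPase, read 27.6, 74.0 and 73.6 CPM untreated, 1432, 1603 and 1476 with LPS and 972, 1214 and 1096 with both agents. The treated groups did not overlap, yet the difference of −0.46 ± 0.25 was called only without untreated replicate 1 (adjusted p = 0.344 with it and 0.000678 without it). Irf8 was named after its values were seen.

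Antigen presentation split by class. All 20 class I genes (heavy chains, peptide transporters and proteasome parts that load peptides for CD8 T cells) rose over untreated glia with both agents (median 3.08) and with LPS (median 3.48). Of these, 13 were called lower than with LPS and none higher (median −0.42), where 3.55% of all genes were called lower, and 16 were lower without untreated replicate 1. H2-K1, a class I heavy chain, read 134, 177 and 170 CPM untreated, 3276, 3335 and 3176 with LPS and 2244, 2348 and 2207 with both agents. The 3 groups did not overlap, with 3.82 ± 0.11 against untreated and −0.53 ± 0.10 against LPS (adjusted p = 0.0032). H2-Q6, a non-classical class I gene, showed the larger difference from LPS (−1.11 ± 0.13, adjusted p = 6.01e-05), at 135, 168 and 146 CPM against 314, 355 and 303. H2-Q6 and H2-Q7 are close paralogs, so reads may be split between them.

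Class II genes, which present peptides to CD4 T cells, were much closer to untreated levels. Of 15, 5 rose and 2 fell with both agents (median 0.08), beside 9 and 1 with LPS (median 0.74), and 6 were called lower than with LPS. Cd74, the invariant chain, read 2.90, 2.77 and 3.96 CPM untreated, 38.4, 38.9 and 33.7 with LPS and 10.8, 11.4 and 9.19 with both agents. It lay between the other groups without overlap, 1.70 ± 0.17 over untreated and −1.82 ± 0.14 against LPS (adjusted p = 1.82e-06). H2-Aa, a class II alpha chain picked after its values were seen, read 0.269, 0.672 and 0.540 CPM with both agents, among the untreated 0.429, 0.148 and 0.811 and under the 5.23, 3.23 and 4.32 of LPS (−3.08 ± 0.34, adjusted p = 5.26e-05). The costimulatory genes went differently. Cd86 read 18.5, 23.5 and 20.5 CPM with both agents, above the 10.1, 12.4 and 14.2 of LPS (0.76 ± 0.19, adjusted p = 0.0261) and the 2.20, 3.16 and 5.34 of untreated glia. Cd40 read 11.7, 14.1 and 11.7 CPM with both agents and 14.5, 13 and 12.7 with LPS, with at most 0.573 untreated. Ciita, the master activator of class II transcription, rose to 1.29, 2.07 and 1.62 CPM from 0.429, 0.296 and 0.763 (1.72 ± 0.30, adjusted p = 0.000201).

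**Figure D2:**
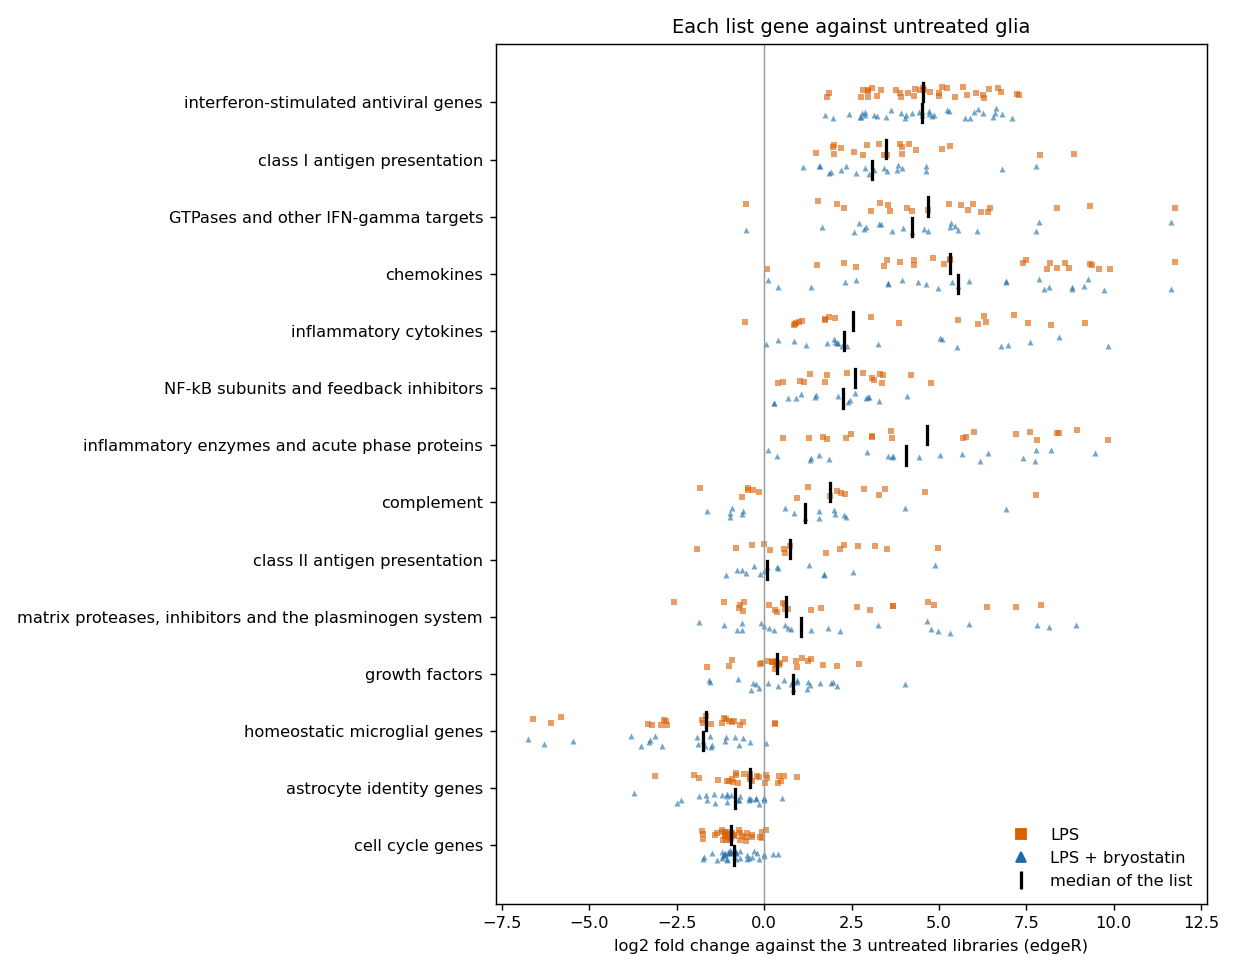
Log2 fold change against the same untreated libraries for each measured gene of 14 lists, with LPS (orange squares) beside LPS and bryostatin (blue triangles) and the list median as a black bar. Medians of the antiviral genes are 4.56 and 4.50, those of the class II genes 0.74 and 0.08.

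Complement genes rose in 10 and fell in 5 of 17 cases (median 1.16), beside 10 and 4 with LPS (median 1.88). Against LPS 7 were lower and none higher. C3, the central component, read 343, 479 and 554 CPM untreated, 4665, 4065 and 4750 with LPS and 2028, 2240 and 2462 with both agents. The groups were separate, with 2.29 ± 0.14 over untreated and −1.0 ± 0.14 against LPS (adjusted p = 0.000322). C1ra, a protease of the classical pathway, followed the same order, at 35.9, 29.9 and 27, then 341, 349 and 335, then 142, 165 and 165 CPM (−1.12 ± 0.10 against LPS, adjusted p = 4.02e-06). C1qa, a chain of the recognition molecule made by microglia, was instead lowest with both agents: 294, 376 and 364 CPM untreated, 263, 245 and 249 with LPS and 193, 176 and 159 with both agents (−0.97 ± 0.13 against untreated, −0.52 ± 0.13 against LPS, adjusted p = 0.0226).

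Genes that restrain inflammation were among those that stayed high. Of 21, 13 rose and 3 fell against untreated (median 1.59), beside 14 and 4 with LPS (median 1.25). Il1rn, the interleukin-1 receptor antagonist, read 0.590, 0.939 and 1.86 CPM untreated, 117, 145 and 122 with LPS and 170, 224 and 182 with both agents. Its treated groups did not overlap, and it was 0.58 ± 0.16 above LPS (adjusted p = 0.0401) and 7.38 ± 0.24 above untreated. Cd274, the checkpoint ligand PD-L1, read 4.56, 6.77 and 6.44 CPM untreated and 133, 184 and 167 with both agents, beside 122, 129 and 129 with LPS (0.35 ± 0.13, adjusted p = 0.149, and 0.0457 without untreated replicate 1). Il10, the main anti-inflammatory cytokine, was scarce, with 2 counts over the untreated group, 74 with LPS and 50 with both agents, a ratio to untreated of 26.51 with a counting interval of 6.964 to 224.9. Inflammasome and cell-death genes rose in 9 of 15 cases, with none called against LPS by the main test (3 lower without untreated replicate 1). Casp4, the sensor of LPS inside cells, was an example, at 1.13, 1.83 and 1.91 CPM untreated and 54.9, 60.6 and 59.3 with both agents (5.15 ± 0.14).

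**Figure D3:**
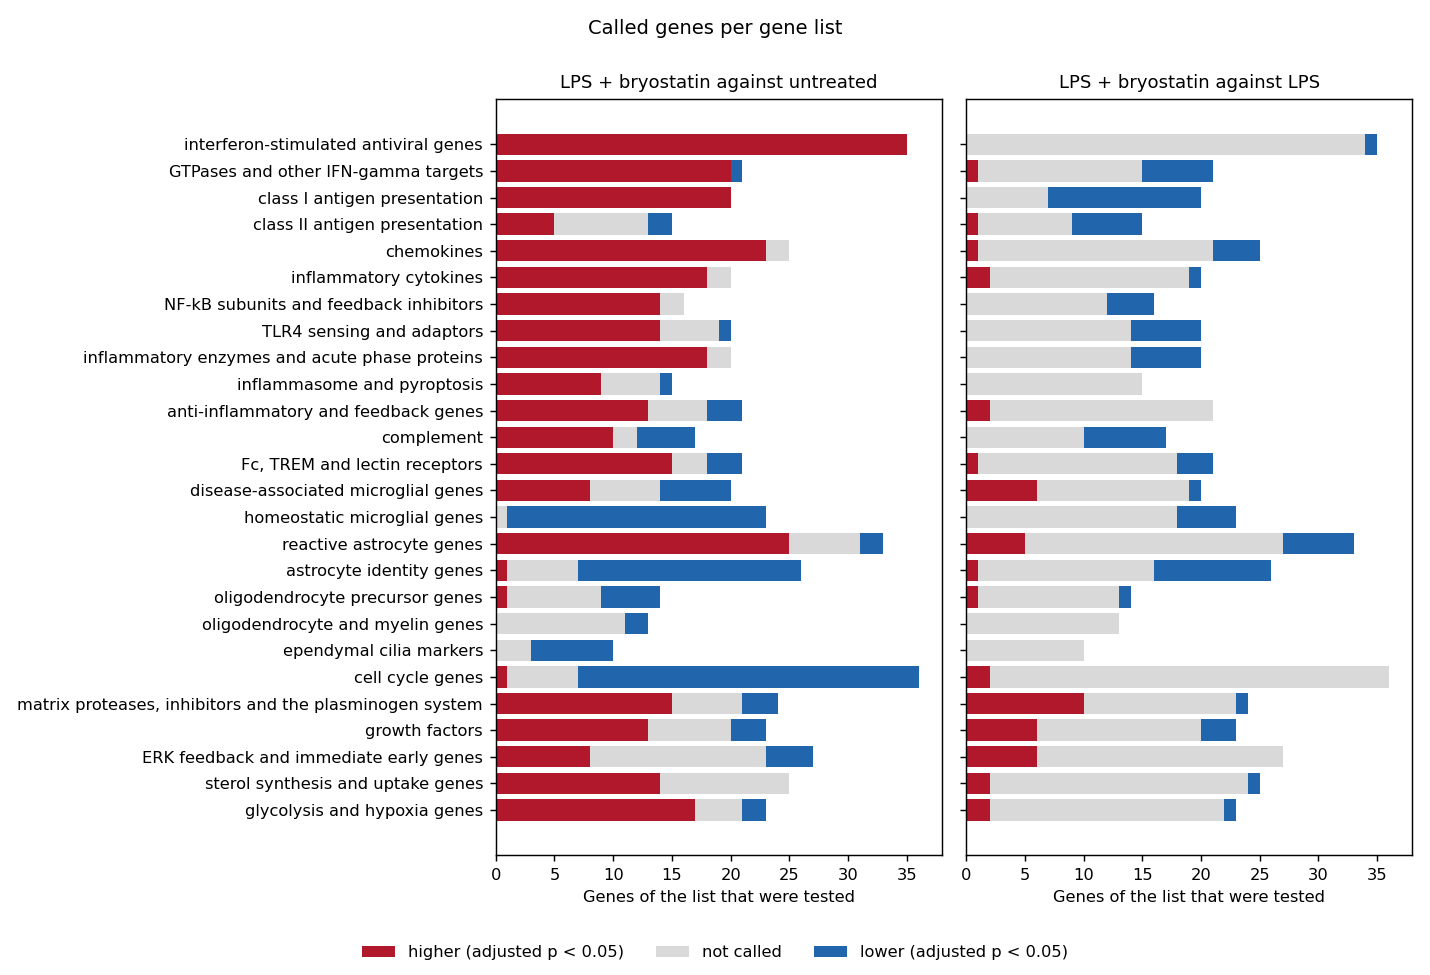
Number of measured genes called higher, called lower and not called in each of 26 gene lists, for LPS and bryostatin against untreated glia and against LPS. Against untreated glia all 35 antiviral and all 20 class I genes are called higher and 22 of 23 homeostatic microglial genes lower, while against LPS 13 class I genes are called lower and 10 matrix protease genes higher.

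Homeostatic microglial genes were low with both agents: 22 of 23 measured fell and none rose (median −1.74), beside 21 that fell with LPS (median −1.68). Their summed level was 1938 to 2232 CPM untreated and 769.2 to 816.4 with both agents. Gpr34, a lysophosphatidylserine receptor, fell the most, from 13.4, 18.8 and 15.9 CPM to 0.108, 0.103 and 0.216, beside 0.165, 0.237 and 0.0546 with LPS (−6.75 ± 0.52, adjusted p = 2.84e-08). P2ry12, the ADP receptor of ramified microglia, read 13.1, 21.8 and 23.7 CPM untreated, 2.92, 2.23 and 1.20 with LPS and 1.45, 2.17 and 1.41 with both agents. Trem2, a lipid-sensing receptor, read 63.2, 85.3 and 69.4 CPM untreated and 6.67, 8.17 and 7.13 with both agents (−3.31 ± 0.18), and Tmem119 38.1, 58.7 and 55.6 against 16.2, 17.5 and 13.8. Both overlapped their LPS values.

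Bryostatin with LPS lay below LPS at 5 of these genes. Cx3cr1, the fractalkine receptor, read 163, 178 and 197 CPM untreated, 55.8, 49.3 and 53.4 with LPS and 23.6, 17.6 and 20.1 with both agents. It was separate in all 3 groups, at −3.13 ± 0.11 against untreated and −1.37 ± 0.11 against LPS (adjusted p = 1.82e-06). Csf1r, the survival receptor for CSF1 and interleukin 34, followed, at 356, 343 and 356, then 167, 140 and 152, then 112, 97.7 and 106 CPM (−0.54 ± 0.08 against LPS, adjusted p = 0.000435). Cd33, a sialic-acid receptor, was the measured member with no call, at 22.5, 21.8 and 23.5 CPM untreated and 23.5, 24.1 and 23 with both agents.

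Phagocytic and pattern receptors rose in 15 and fell in 3 of 21 cases (median 1.73), beside 16 and 3 with LPS (median 1.98). Fcgr1, the high-affinity receptor for IgG, read 17.0, 22.4 and 20.9 CPM untreated, 198, 192 and 189 with LPS and 211, 217 and 189 with both agents. Marco, a scavenger receptor for bacteria, rose to 76.3, 63.7 and 67.7 CPM from 4.40, 1.98 and 5.11, less than with LPS (184, 143 and 182 CPM; −1.29 ± 0.19, adjusted p = 0.000919). Genes of the disease-associated microglial state moved both ways, 8 up and 6 down of 20 (median −0.17). Spp1, osteopontin, read 348, 279 and 261 CPM untreated, 338, 325 and 373 with LPS and 1422, 1235 and 1483 with both agents. LPS and untreated libraries overlapped, whereas every library with both agents was above them, by 2.22 ± 0.12 over untreated (adjusted p = 2.4e-10) and 2.00 ± 0.12 over LPS (adjusted p = 8.31e-08). Lpl, lipoprotein lipase, was at its untreated level with both agents (163, 120 and 133 untreated, 127, 124 and 127 CPM with both agents; −0.14 ± 0.11, adjusted p = 0.357) and above the 56.6, 55.4 and 62.9 of LPS (1.11 ± 0.12, adjusted p = 2.41e-05). Gpnmb, a lysosomal glycoprotein, and Igf1, a trophic factor, stayed below untreated, at −1.42 ± 0.13 and −1.57 ± 0.16.

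Of the genes linked to alternative activation of macrophages, 8 of 17 had counts enough to test, and 4 rose and 2 fell (1 without untreated replicate 1). Arg1, arginase 1, read 0.268, 0.296 and 0.525 CPM untreated, 27.9, 28.6 and 27.5 with LPS and 53.1, 46.5 and 42.7 with both agents, separate in all 3 groups (6.99 ± 0.30 over untreated and 0.76 ± 0.19 over LPS, adjusted p = 0.0234). Mrc1, the mannose receptor, which also marks border macrophages, fell from 27.9, 36.8 and 30.5 CPM to 4.46, 6.62 and 5.13, beside 4.35, 4.32 and 4.21 with LPS.

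Astrocyte identity genes were mostly below untreated levels with both agents, and often below LPS levels too. Of 26, 19 fell and Aldh1l1 rose against untreated (median −0.84), beside 15 that fell and 4 that rose with LPS (median −0.41). Against LPS 10 were lower and 1 higher (median −0.46), and 16 lower without untreated replicate 1. The summed level was 22770 to 27310 CPM untreated, 19410 to 20270 with LPS and 15500 to 16080 with both agents. Slc1a3, the glutamate transporter GLAST, read 1222, 1450 and 1530 CPM untreated, 1241, 1217 and 1212 with LPS and 658, 658 and 694 with both agents. LPS libraries reached the untreated range, and those with both agents lay under it by 1.06 on the log2 scale (SE 0.08, adjusted p = 2.68e-08). Atp1b2, a sodium pump subunit of astrocytes, had the same order, at 934, 1200 and 1123, then 1145, 1175 and 1013, then 552, 578 and 569 CPM (−0.97 ± 0.09 against LPS, adjusted p = 1.56e-05).

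Other astrocyte genes fell with LPS already. Gfap, the intermediate filament of astrocytes, read 7933, 9887 and 9234 CPM untreated, 5204, 4677 and 4820 with LPS and 4540, 4309 and 4081 with both agents (−1.06 ± 0.10, adjusted p = 3.94e-07, and −0.18 against LPS, adjusted p = 0.353). Slc39a12, a zinc transporter, went from 226, 213 and 229 CPM to 25.2, 25.3 and 26.8 with LPS and 16.2, 17.3 and 16.8 with both agents, lower than with LPS by 0.62 (SE 0.08, adjusted p = 0.000128). Gja1, the gap-junction protein connexin 43, read 330, 588 and 602 CPM untreated, 212, 209 and 184 with LPS and 132, 145 and 136 with both agents (−1.88 ± 0.17). Its difference from LPS was called only without untreated replicate 1 (adjusted p = 0.0737 with it and 0.000177 without it). Slc1a2, the glutamate transporter GLT-1, and Aqp4, the water channel, were higher with LPS than untreated and fell back with both agents. Slc1a2 read 475, 477 and 509 CPM with LPS and 223, 275 and 273 with both agents, among the 168, 270 and 331 of untreated glia (0.00 ± 0.19). Aqp4 read 1371, 1433 and 1431 CPM with LPS and 744, 876 and 856 with both agents, against 841, 1109 and 1254 untreated (−0.37 ± 0.13, adjusted p = 0.0271). Aldh1l1, a folate enzyme used as an astrocyte marker and picked here after its values were seen, rose, from 262, 257 and 238 to 377, 345 and 361 CPM (0.52 ± 0.09, adjusted p = 0.000205).

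**Figure D4:**
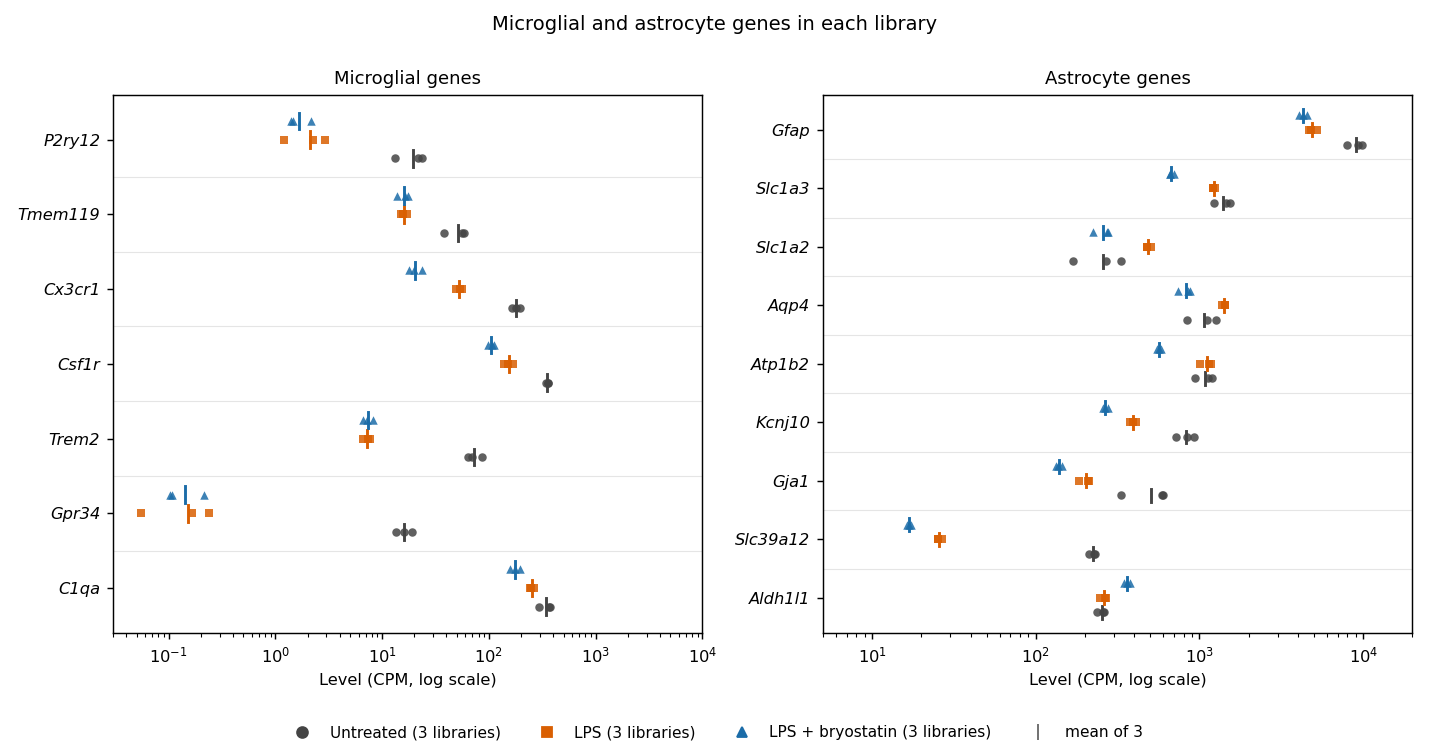
Levels of 7 microglial and 9 astrocyte genes in each untreated, LPS, and LPS and bryostatin library (log axis, CPM). Cx3cr1 falls from 163 to 197 CPM untreated to 17.6 to 23.6 with both agents, Slc1a3 from 1222 to 1530 to 658 to 694, and Aldh1l1 rises from 238 to 262 to 345 to 377.

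Reactive astrocyte genes rose in 25 and fell in 2 of 33 cases (median 1.70), beside 24 and 4 with LPS (median 1.81), and against LPS 5 were higher and 6 lower (8 and 12 without untreated replicate 1). Timp1, an inhibitor of matrix proteases, read 43.1, 49.2 and 43.1 CPM untreated, 1086, 1231 and 1140 with LPS and 1107, 1279 and 1053 with both agents. The treated groups overlapped, 0.01 apart with a 95% interval of −0.25 to 0.24. Steap4, a metalloreductase, read 6.49, 19.4 and 25.8 CPM untreated and 533, 521 and 641 with both agents, under the 1081, 1068 and 1146 of LPS (−0.96 ± 0.28, adjusted p = 0.062, and 1.52e-06 without untreated replicate 1). Vim, the intermediate filament vimentin, fell from 5980, 4623 and 4251 CPM to 3996, 3613 and 3572 (−0.41 ± 0.12, adjusted p = 0.009), beside 3057, 3113 and 2863 with LPS.

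Oligodendrocyte-lineage genes are where untreated replicate 1 weighed most. Of 14 measured precursor genes 5 fell and 1 rose (median −0.99), and without that library 10 fell and 1 rose (median −1.33). Oligodendrocyte genes fell in 2 of 13 cases with it and in 9 of 13 without it. Sox10, given above for the untreated group, read 30.6, 34.5 and 34.1 CPM with LPS and 10.3, 9.25 and 8.0 with both agents. Its −1.22 ± 0.74 against untreated was not called (adjusted p = 0.209), but its −1.79 without untreated replicate 1 was (adjusted p = 2.27e-09), and against LPS it was −1.85 ± 0.74 (adjusted p = 0.178, and 1.19e-08 without that library). Pdgfra, the growth factor receptor of precursors, read 3.92, 135 and 154 CPM untreated, 122, 128 and 143 with LPS and 155, 167 and 160 with both agents, with no call in either fit (0.72 ± 0.67 and, without untreated replicate 1, 0.16). Bcan, the proteoglycan brevican, fell with or without it, from 85.2, 194 and 178 CPM to 59.0, 50.2 and 54.5 (−1.48 ± 0.22, adjusted p = 0.000101), under the 105, 98.5 and 100 of LPS (adjusted p = 0.027). Olig2, a lineage transcription factor, differed little, with 95.4, 98 and 90.3 CPM untreated and 83.4, 77.3 and 86.2 with both agents (−0.20 ± 0.09, adjusted p = 0.0714).

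**Figure D5:**
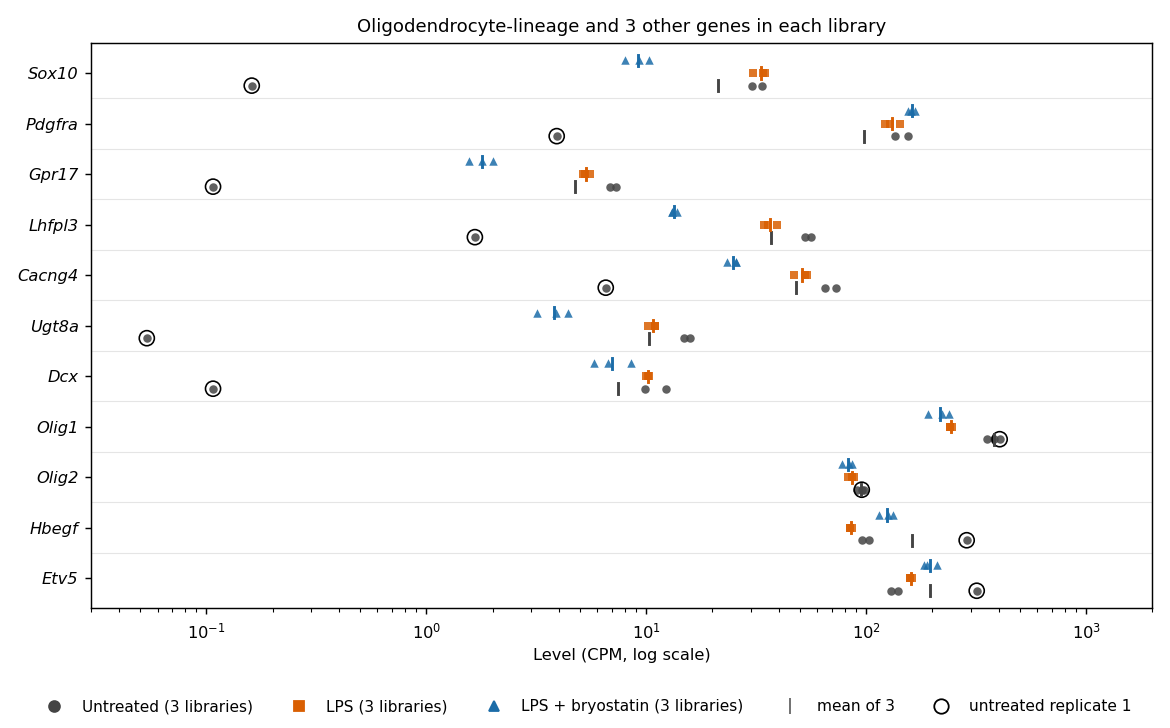
Levels of oligodendrocyte-lineage genes and of 3 others (Dcx, Hbegf and Etv5) in each untreated, LPS, and LPS and bryostatin library (log axis, CPM), with a circle around untreated replicate 1. Sox10 lies at 0.161 CPM in that library and at 8.0 to 10.3 with both agents, while Hbegf lies at 286 CPM in it against 95.8 and 102 in the other untreated libraries.

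Of 24 genes of matrix proteases and the plasminogen system, 15 rose and 3 fell against untreated (median 1.05), beside 17 and 5 with LPS (median 0.63). Against LPS 10 were higher, 1 was lower and 13 were not called (median 0.56), where 3.35% of all genes were called higher, and 13 and 4 without untreated replicate 1. Mmp3, stromelysin 1, read 4.51, 3.56 and 4.68 CPM untreated, 594, 621 and 681 with LPS and 884, 1014 and 952 with both agents (0.59 ± 0.10 against LPS, adjusted p = 0.00187). Mmp13, a collagenase, rose from 0.322, 0.247 and 0.906 CPM to 220, 254 and 259, above the 112, 133 and 122 of LPS (1.0 ± 0.15, adjusted p = 0.000775). Plaur, the receptor that holds urokinase at the cell surface, read 8.15, 5.24 and 5.72 CPM untreated, 16.7, 14.7 and 16.6 with LPS and 33.6, 26.2 and 25.3 with both agents (0.83 ± 0.14, adjusted p = 0.00181).

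Mmp11, a stromelysin picked after its values were seen, read 20.5, 29.2 and 25.5 CPM untreated, 29.6, 31.5 and 32.9 with LPS and 87.0, 94.7 and 84.6 with both agents, so the LPS libraries began where the untreated ones ended and those with both agents stood clear of them (1.5 ± 0.12 against LPS, adjusted p = 1.82e-06). Mmp8, a neutrophil collagenase, had 0 counts over the untreated group, 33 with LPS and 110 with both agents, at least 38.88-fold above untreated. Adamts1, a proteoglycan-cleaving protease, turned direction with untreated replicate 1: it read 312, 71.3 and 76.0 CPM untreated and 96.2, 101 and 98.3 with both agents, giving −0.63 ± 0.41 with that library (adjusted p = 0.237) and 0.42 without it (adjusted p = 0.000805).

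The promoters of Mmp3 and Plaur are printed because both rose over untreated and again over LPS. They come from the same table and window, at chr9:7445572-7445871 and chr7:24462233-24462532 (both plus strand). Capitals mark the AP-1 motif TGANTCA, the element of genes responsive to phorbol esters, which bind the same domain of protein kinase C as bryostatin.
Mmp3: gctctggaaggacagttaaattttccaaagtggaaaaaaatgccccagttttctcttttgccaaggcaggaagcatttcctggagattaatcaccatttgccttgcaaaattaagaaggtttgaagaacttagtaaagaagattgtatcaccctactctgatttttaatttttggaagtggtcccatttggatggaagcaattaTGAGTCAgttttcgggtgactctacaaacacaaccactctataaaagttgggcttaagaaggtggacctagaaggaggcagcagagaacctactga
Plaur: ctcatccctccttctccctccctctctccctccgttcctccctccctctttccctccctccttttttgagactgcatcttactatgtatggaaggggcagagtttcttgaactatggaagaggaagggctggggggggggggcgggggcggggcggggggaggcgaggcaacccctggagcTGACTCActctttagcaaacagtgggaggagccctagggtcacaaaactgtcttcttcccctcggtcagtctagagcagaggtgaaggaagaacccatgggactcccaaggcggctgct
The match begins 46 bases before the start of Mmp3 and 69 before that of Plaur. It was found in 6 of 16 list genes with a promoter in the table (37.5%), in 6.7% of tested genes with one and in 7.8% of all promoters. Some other lists had shares near that of this list: 31.2% of disease-associated microglial, 30.0% of class II and 28.6% of cytokine genes. Against LPS these lists differed: 6 of 20 disease-associated genes were called higher and 1 lower. For class II genes it was 1 higher and 6 lower of 15, and for cytokines 2 and 1 of 20. Among ERK feedback genes the motif was found in 0 of 16. A match is not a bound site, and the part of the motif in the rises was not tested.

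Growth and trophic factors rose in 13 and fell in 3 of 23 cases (median 0.81), beside 11 and 3 with LPS (median 0.37), and 6 were higher and 3 lower than with LPS (9 and 5 without untreated replicate 1). Gdnf, a survival factor for dopaminergic and motor neurons, read 0.644, 0.642 and 0.334 CPM untreated, 3.08, 3.23 and 4.42 with LPS and 6.83, 11.5 and 7.94 with both agents. It was separate in all 3 groups, at 4.02 ± 0.28 over untreated and 1.29 ± 0.22 over LPS (adjusted p = 0.0017). Il34, a ligand of the CSF1 receptor, read 10.5, 6.22 and 8.11 CPM untreated, 21.9, 20.7 and 19.6 with LPS and 29.5, 31.9 and 31.1 with both agents (0.57 ± 0.16 against LPS, adjusted p = 0.0387). Pdgfa, a mitogen of precursors picked after its values were seen, read 94.1, 107 and 87.8 CPM with both agents, 52.8, 54.3 and 50.2 with LPS and 52.9, 35.9 and 35.8 untreated (1.22 ± 0.13). Hbegf, a ligand of the EGF receptor, was 286, 95.8 and 102 CPM untreated and 126, 132 and 114 with both agents, giving −0.38 ± 0.30 with untreated replicate 1 (adjusted p = 0.336) and 0.32 without it (adjusted p = 0.00211).

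Early-response and feedback genes of the ERK pathway, which acts downstream of protein kinase C, gave counts that depended on single libraries. Of 27, 8 rose and 4 fell (median 0.04), beside 5 and 9 with LPS. Without untreated replicate 1, 15 rose and 4 fell (median 0.32). The 8 that rose became 5 without untreated replicate 2 or 3, 4 without replicate 1 given both agents and 5 without replicate 2 given both. Against LPS 6 were higher and none lower, and 12 and 2 without untreated replicate 1. Areg, an EGF receptor ligand, read 0.322, 0.148 and 0.143 CPM untreated, 0.826, 0.712 and 0.546 with LPS and 1.99, 3.77 and 2.59 with both agents (3.75 ± 0.40 over untreated and 1.99 ± 0.33 over LPS, adjusted p = 0.00149). Etv5, a transcription factor induced by ERK, read 318, 130 and 139 CPM untreated and 183, 188 and 210 with both agents, −0.01 ± 0.24 with untreated replicate 1 (adjusted p = 0.977) and 0.53 without it (adjusted p = 1.65e-05). Spry1, an ERK inhibitor, fell in both fits, from 45.3, 15.9 and 19.7 CPM to 8.29, 9.51 and 9.89 (−1.54 ± 0.29, and −0.94 without that library).

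Some genes changed with both agents while their log2 fold change with LPS was within 0.25 of untreated. That rule named 16 genes, and without untreated replicate 1 only 8 of them stay within it (a check added after seeing the data). Spp1 and Slc1a3, given above, then stand at 0.36 and −0.28 with LPS, Apcdd1 at −0.34 and Klf15 at −0.26, while Dlk1 and Gpc1 stand at −0.23 and 0.23. Dlk1, a Notch-related membrane protein, read 31.0, 61.6 and 51.5 CPM untreated, 47.2, 50.2 and 46.6 with LPS and 179, 172 and 158 with both agents (1.82 ± 0.19 over untreated, adjusted p = 1.77e-06). Gpc1, the heparan sulfate proteoglycan glypican 1, read 66.5, 63.9 and 56.5, then 72.6, 69.0 and 69.2, then 146, 149 and 127 CPM (1.18 ± 0.09). A call against untreated glia and no overlap with the untreated libraries were conditions of the rule. In both genes the libraries with both agents also lay above all LPS libraries. Apcdd1, a Wnt inhibitor, was lower with both agents than in every LPS library. It read 6.01, 22 and 24.2 CPM untreated, 18.8, 17.4 and 18.4 with LPS and 4.57, 5.43 and 5.78 with both agents (−1.73 ± 0.35, adjusted p = 0.00116). Klf15, a transcription factor of glucocorticoid responses, read 13.4, 22.6 and 19.9 CPM untreated and 10.5, 7.91 and 10.3 with both agents (−0.97 ± 0.17, adjusted p = 0.000189).

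The genes highest against LPS included several of low level. Esm1, an endothelial proteoglycan also called endocan, read 1.13, 0.939 and 0.811 CPM untreated, 2.31, 3.80 and 2.35 with LPS and 36.7, 30.3 and 33.3 with both agents (3.55 ± 0.22 against LPS, adjusted p = 1.13e-07). Npy, neuropeptide Y, read 1.99, 1.09 and 1.38 CPM untreated, 1.38, 2.18 and 2.79 with LPS and 14.5, 13.5 and 10.1 with both agents. Nefl, a neurofilament protein, had at most 0.148 CPM untreated, 1.49, 1.66 and 1.04 with LPS and 5.65, 6.15 and 4.97 with both agents (1.99 ± 0.33 against LPS, adjusted p = 0.00147). Beside these, 5 of 10 measured neuronal markers rose over untreated and none fell (median 0.99), and 3 were higher than with LPS. Without untreated replicate 1, 6 of these markers rose, 2 fell and 5 were higher than with LPS. Their summed level was 344.5 to 403.2 CPM untreated, 293.3 to 308.7 with LPS and 388.6 to 402.3 with both agents, so with both agents it lay above LPS and within the untreated range. That of the endothelial markers was 28.11 to 31.57 CPM untreated, 42.0 to 47.3 with LPS and 34.85 to 44.81 with both agents. The part of these cells in the rises was not tested.

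At the other end, Hpgd, which degrades prostaglandins, fell in steps, from 45.8, 51.2 and 50.4 CPM untreated to 8.48, 10.8 and 10.3 with LPS and 2.26, 2.17 and 1.19 with both agents (−4.71 ± 0.26 against untreated and −2.39 ± 0.26 against LPS, adjusted p = 3.69e-05). Myoc, myocilin, followed the same order, at 9.44, 18.1 and 14.7, then 5.18, 8.07 and 6.23, then 1.34, 0.775 and 0.702 CPM. Genes that LPS raised by more than 2 on the log2 scale and that lay nearest to untreated with both agents were also looked up. Their nearness to untreated was a condition of that choice, and a gap below LPS follows from it. The p-values given for them are therefore no separate evidence of either. Besides Cxcl13 they included Ggt5, which processes glutathione conjugates and leukotrienes, at 1.99, 5.29 and 4.29 CPM untreated, 16.5, 14.8 and 15.5 with LPS and 4.14, 4.60 and 4.65 with both agents. It overlapped untreated glia (0.20 ± 0.24, adjusted p = 0.537) and was 1.8 below LPS (SE 0.22, adjusted p = 0.000117). Bmp3, a BMP family member, read 2.84, 5.19 and 6.11, then 19.8, 20.6 and 19.4, then 6.03, 6.05 and 8.81 CPM (0.56 ± 0.25 against untreated, adjusted p = 0.0857). For Ggt5 and Bmp3 untreated replicate 1 was the lowest untreated library, which enlarges their rise with LPS. Whether they meet the rule without that library was not tested.

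Cell-cycle genes fell in 29 of 36 cases and 1 rose (median −0.85), beside 32 that fell with LPS (median −0.96). Mki67, a marker of dividing cells, read 48.3, 27.6 and 32.7 CPM untreated, 10.3, 9.78 and 11.2 with LPS and 11.5, 13.1 and 7.56 with both agents (−1.75 ± 0.25). Sterol synthesis genes rose in 14 of 25 cases and none fell (median 0.45, and 19 without untreated replicate 1), beside 15 with LPS. Cyp51, a demethylase of that pathway, read 134, 106 and 110 CPM untreated, 190, 189 and 186 with LPS and 214, 230 and 206 with both agents (0.90 ± 0.08, adjusted p = 1.86e-07). Glycolysis and hypoxia genes rose in 17 and fell in 2 of 23 cases (median 0.44), beside 11 and 1 with LPS (median 0.31). Slc16a3, the lactate exporter MCT4, rose from 11.8, 12.5 and 13.6 CPM to 101, 91.2 and 82.5 (2.85 ± 0.13). Antioxidant genes of NRF2 rose in 2 and fell in 8 of 24 cases (7 and 8 without untreated replicate 1), beside 7 and 7 with LPS. Gclc, which makes glutathione, fell from 206, 148 and 160 CPM to 68.5, 61.5 and 72.6, also below the 90.8, 91.0 and 95 of LPS (−0.45 ± 0.11, adjusted p = 0.0168).

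Of 22 measured genes of protein kinase C and diacylglycerol signalling, the pathway that bryostatin acts on, 7 rose and 6 fell against untreated (median 0.06), where 22.2% and 19.9% of all genes did. The 7 became 4 without replicate 3 given both agents. None was called against LPS (3 without untreated replicate 1, 2 higher and 1 lower). Prkca, the conventional isoform alpha, read 330, 179 and 208 CPM untreated, 103, 104 and 107 with LPS and 123, 138 and 151 with both agents (−0.80 ± 0.17, adjusted p = 0.0015). Its treated groups did not overlap, yet the 0.39 ± 0.17 between them was called only without untreated replicate 1 (adjusted p = 0.223 with it and 0.00755 without it). Prkcd, the isoform delta, read 65.5, 46.5 and 49.2 CPM untreated, 76.2, 79.4 and 79.3 with LPS and 60.8, 62.8 and 64.5 with both agents (0.22 ± 0.10, adjusted p = 0.0884, and 0.39 without that library, adjusted p = 0.000262). Rasgrp3, a Ras activator with a C1 domain, fell from 10.7, 13.7 and 14.4 CPM to 0.968, 1.24 and 1.73, with its highest library just inside the 1.71, 2.33 and 2.51 of LPS.

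Bryostatin without LPS, in the other experiment and against other controls, gave 565 called genes of 15604 (3.62%), 329 higher (2.11%) and 236 lower (1.51%). That count was 188 without bryostatin replicate 1, 265 without bryostatin replicate 3 and 9 when only its 6 libraries were fitted. Untreated replicate 1 of that experiment also stood apart, with r = 0.958 and 0.951 to its own group and 0.981 and 0.975 to untreated replicates 2 and 3 of the main experiment. Without that library 429 genes were called, 229 higher and 200 lower. The list counts and gene values that follow include it and are set beside the main ones without a test. No antiviral gene was called of 33 measured. Chemokines rose in 7 of 17 cases and 1 fell, for example Ccl2 by 3.77 (adjusted p = 0.000149) and Ccl12 by 2.84 (adjusted p = 2.27e-05). Astrocyte identity genes fell in 11 of 26 cases, with Gja1 at −1.13 and Aqp4 at −0.95. Matrix protease genes rose in 6 of 23 cases, with Mmp3 at 2.57 (adjusted p = 0.000216) and Plaur at 1.81. Spp1 rose by 2.57 (adjusted p = 0.000124) and Arg1 by 4.44 (adjusted p = 0.000216). Cell-cycle genes rose in 19 of 36 cases, opposite to their direction with LPS and bryostatin, and P2ry12 (−0.23, adjusted p = 0.529), Tmem119 (−0.18) and Cx3cr1 (−0.22, adjusted p = 0.403) were not called.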

How the data were processed

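Library preparation from polyadenylated RNA did not keep strand, per the labels' protocols, so reads of overlapping and antisense genes cannot be told apart. The submitters' processing notes list a read trimmer (fastp), an aligner (STAR), a read counter (featureCounts) and build mm10, and give no versions or options. What the authors deposited and what is used here are raw counts per gene for 54532 annotated genes. Their FPKM values were not used.

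Tests were run in edgeR 4.0.16 under R 4.3.3 (filterByExpr on groups, TMM factors, robust quasi-likelihood fit and test), with limma 3.58.1 beneath it, DESeq2 1.42.0 as an alternative and the package data.table (version 1.17.8) to read files. Experiment 1 was fitted with all 15 libraries of its 5 groups and experiment 2 with its 12, group being the only term, with Benjamini-Hochberg adjustment over all genes in each of 4 comparisons. With 3 libraries per group, depth sets a floor of 3 counts over a group, used for bounds where a group had 0 counts, and 95% counting intervals cover counting error only. The fit was tested on simulated data with known changes.

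The comparison, the 38 gene lists and the 67 core genes were chosen with earlier results of these data known. Genes were named by a rule: the core genes, the 12 largest changes each way against untreated and 10 against LPS, up to 5 called and 3 other members per list, the 8 largest changes each way among genes within 0.25 (log2) of untreated with LPS, and 8 genes raised by LPS that lay nearest to untreated with both agents, a mean of 5 CPM being required where changes were ranked. The largest changes were ranked only among protein-coding genes with no clone name that were called and whose compared groups did not overlap. Calls and separation of those genes in the comparison that ranked them are therefore conditions of entry. The 8 genes raised by LPS had to be protein-coding and called for LPS against untreated. A few genes named by the rule are left out of the text. Any gene from outside the rule is marked as picked after its values were seen. Motifs were searched in RefSeq promoters of build GRCm38.p6. Alternatives were DESeq2, its size factors in edgeR, no filter, a replicate block, only the compared groups, all 27 libraries and leaving out each library.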

Additional observations from a re-analysis of the deposited data

How the results depend on the processing

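Counts of called genes moved by more than 1.5 times in 2 comparisons. Against LPS, 1108 genes became 3354 with only the compared groups in the fit, 2148 without untreated replicate 1 (an alternative chosen after seeing the data) and 588 to 689 without 1 library of the compared groups. For bryostatin alone, 565 became 1266 with DESeq2, 1548 with all 27 libraries in 1 fit, 9 with only the compared groups and 188 to 824 without 1 library. Against untreated glia the 6773 genes stayed between 5508 and 7773 in all settings run, and the 6164 of LPS between 5100 and 7032 without 1 library. Leaving out 1 untreated or treated library moved Adamts1 between −0.98 and 0.42, Etv5 between −0.24 and 0.53 and Hbegf between −0.65 and 0.32, the positive value in each case without untreated replicate 1. Of the other alternatives for named genes against untreated, 3905 kept direction and side of the threshold, 53 lost a call and 50 gained one, and against LPS 1291, 60 and 39. For counts within lists, 427 stayed within 1.5 times and 17 did not. Replicate numbers are shared by the groups. Deviations of same-numbered libraries correlated at −0.003, 0.008 and 0.038 between both agents and untreated. The values were 0.062, 0.061 and 0.054 between LPS and untreated, and −0.003, 0.063 and 0.066 between both agents and LPS. Differently numbered libraries gave −0.106 to 0.074. With 3 libraries per group such small values cannot decide whether the numbers pair the libraries. A replicate block gave 6527 genes against untreated, 963 against LPS, 5935 for LPS and 422 for bryostatin alone. Depth limits genes near 3 counts, where folds are bounds or ratios with wide counting intervals.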

Other observations

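Ciliated ependymal-like genes and stress-response genes add to the picture. Of 10 markers of motile cilia 7 fell with LPS and bryostatin against untreated glia (median −1.51), all 10 fell without untreated replicate 1, and 2 of 9 were called lower when only the compared groups were fitted. Their summed level was 247.9, 746.6 and 725.4 CPM in the untreated libraries and 424.6 to 442.8 with both agents, so untreated replicate 1 lay below the treated libraries and the other 2 above them. Foxj1, the master regulator of motile cilia, read 189, 486 and 470 CPM untreated, 350, 335 and 353 with LPS and 359, 337 and 345 with both agents (−0.14 ± 0.24, adjusted p = 0.684, and −0.46 without untreated replicate 1, adjusted p = 2.93e-05). Genes of the unfolded protein and amino-acid stress responses rose in 14 and fell in 5 of 23 cases (median 0.38). Phgdh, the first enzyme of serine synthesis, fell from 138, 161 and 152 CPM to 71.6, 66.1 and 56.5 (−1.22 ± 0.11), and Psat1, the next enzyme, from 151, 204 and 190 to 99.1, 91.5 and 79.7 (−1.01 ± 0.11).

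Of 10 measured mural and fibroblast markers 3 rose and 4 fell. Acta2, smooth muscle actin, which fibroblasts and reactive cells also make, read 1355, 1129 and 1100 CPM untreated, 225, 228 and 191 with LPS and 224, 203 and 165 with both agents (−2.60 ± 0.13, adjusted p = 8.54e-11). Dcn, a fibroblast proteoglycan, rose (1.43 ± 0.40, adjusted p = 0.01), while Col1a1, a collagen chain, was not called (0.73 ± 0.28, adjusted p = 0.0521). None of the list was called against LPS, and the summed level was 2207 to 3289 CPM untreated and 2764 to 3679 with both agents. Lysosomal genes rose in 8 and fell in 5 of 25 cases, where 22.2% and 19.9% of all genes did, and 9 fell without untreated replicate 3 and 8 with DESeq2. Cd63, a membrane protein of late endosomes, rose from 534, 619 and 583 CPM to 1362, 1307 and 1146 (1.14 ± 0.12, and 0.42 ± 0.12 over LPS, adjusted p = 0.0363).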
